A study of Mus musculus with 2 samples.

Results

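The genes for platelet-derived growth factor (PDGF) ligands and receptors were followed in NIH3T3 cells, a long-established line of mouse embryo fibroblasts. They were chosen by name as Pdgfra, Pdgfrb, Pdgfrl, Pdgfa, Pdgfb, Pdgfc and Pdgfd, with every probe that the array files assign to them, which gave 7 of 19715 named genes and 14 of 41174 probes. Cells stably carrying MARVELD1 on the plasmid pcDNA3.1 were compared with cells carrying the empty pcDNA3.1 plasmid, 1 single-colour Agilent array for each. Both lines were selected with G418, which is toxic unless a cell holds the plasmid, and were grown in medium with fetal bovine serum, which itself supplies PDGF. The labels do not say whether either line was 1 clone or a pool. Differences are therefore those between 2 RNA samples, and no test between the groups is possible.

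PDGFs are dimers of A, B, C or D chains that pair receptor tyrosine kinases at the cell surface. The alpha receptor, encoded by Pdgfra, takes A, B and C chains, whereas the beta receptor, encoded by Pdgfrb, takes mainly B and D chains. Paired receptors phosphorylate each other and recruit signalling proteins that drive division and migration of mesenchymal cells such as fibroblasts. Pdgfrl encodes a small relative of the receptors' extracellular domain and has no kinase domain.

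The probes are single-stranded DNA of 60 bases, and what they read depends on where they lie in a transcript. The first 30 bases of the receptor probes printable here and of the ligand probes that gave a signal are shown 5′ to 3′ on mouse build mm9, with the longest run of A and T in capitals.
Pdgfra A_51_P345649, chr5:75593888-75593947, + strand: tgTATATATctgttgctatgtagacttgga
Pdgfra A_52_P264283, chr5:75559613-75559672, + strand: aatgagaagattgtgcagctgAATTcgtcc
Pdgfrl A_51_P466229, chr8:42075859-42075918, + strand: ttggAAAgtgaagagtagtggaccaatggg
Pdgfrl A_52_P537350, chr8:42025122-42025181, + strand: aaccatgtgacAAAAAATgaataggaaatc
Pdgfa A_51_P370090, chr5:139453029-139453088, - strand: ccAATgtgcgtgcggtctttgttctcctcc
Pdgfa A_51_P370099, chr5:139455132-139455191, - strand: ATTgaaagaggtccaggtgaggttagagga
Pdgfc A_52_P376360, chr3:81017572-81017631, + strand: AAATATggagccattgctaacctacccctt
Pdgfc A_51_P333839, chr3:81017419-81017478, + strand: gTATggtgctagagcttagcgtcatctgca
Pdgfd A_52_P636948, chr9:6378717-6378776, + strand: atggctccTATAAAAAAcaccaaaatgtac
The sequence of the only Pdgfrb probe, A_51_P150964, is not shown. No annotation of build mm9 was used, so exon, intron or untranslated region is not stated for any probe.

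On the arrays, 69.0% of spots were well above background with the MARVELD1 label and 68.7% with the empty vector, and no spot was saturated (0 on each). Values are processed fluorescence intensities, and differences are log2 of intensity after division by each array's 75th percentile, which was 703.3 on the array labelled MARVELD1 and 768.1 on the empty vector array. The median gene differed by 0.19 in the direction of the array labelled MARVELD1. Marveld1 itself gave the label no support: its brighter probe read 6292.8 on the array labelled MARVELD1 and 8724.7 on the empty vector array, and its dimmer probe read 126.4 and 184.4 on these arrays in that order. Whether these probes read the plasmid's insert is not known, so every direction below rests on the label alone. Of 12 fibroblast markers 11 were detected, with vimentin (Vim) at 114179 on the array labelled MARVELD1 and 107830 on the empty vector array.

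In these cells 3 PDGF genes were at least 2-fold lower on the array labelled MARVELD1 and 0 were higher, among 6 of the 7 with a detected probe. They were Pdgfrl, Pdgfrb and, only as a bound from a dim probe, Pdgfd. Over all 16504 detected genes 3.51% were lower past 2-fold and 5.41% higher. The median of the 6 detected PDGF genes was -0.88, against 0.19 for all genes. It lies midway between Pdgfra at -0.54 and the Pdgfd bound of -1.21, so it rests in part on that bound. By probe, 3 of 9 detected were lower past 2-fold and 0 higher, against 4.56% and 5.9% of 29410 detected probes. At a 1.5-fold limit the PDGF count was again 3 lower and 0 higher, where 8.86% of all genes were lower and 19.5% higher. At 3-fold 2 were lower and 0 higher, where 1.28% of all genes were lower and 1.21% higher. Pdgfra and Pdgfc were lower by less than 1.5-fold, and Pdgfa was nearly level.

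**Figure D1:**
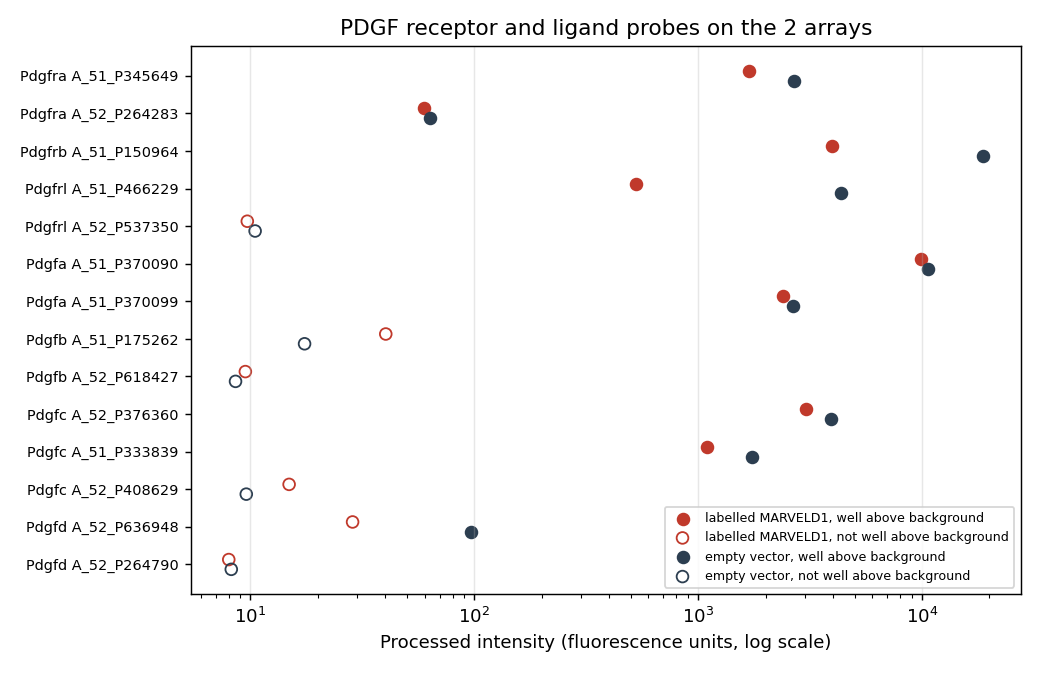
Processed intensity (log axis) of all 14 probes on the array labelled MARVELD1 and on the empty vector array, 1 value per array (the mean of used spots for Pdgfra A_51_P345649). Open circles are readings not well above background. Pdgfrl and Pdgfrb show the widest gaps, at 525.0 against 4360.3 and 3976.9 against 18670.7, while both Pdgfa probes lie close together.

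Among the receptors, Pdgfrb, on chromosome 18, stood far lower with the MARVELD1 label. Its probe read 3976.9 on that array and 18670.7 on the empty vector array, a log2 difference of -2.10, or 4.30-fold. Before any background subtraction the same spots read 4423.4 and 19894.5 on these arrays, over local backgrounds of 46 on each. Feature Extraction, the scanner software, assigns an error to each processed intensity, and the errors of 397.8 and 1867.1 combine to 0.20 on the log2 difference. Among 78 bright probes (geometric mean over 1000) printed 10 times, a difference between single spots had an SD of 0.17. The gap thus lies well outside spot noise, but that noise holds no biological variation. In the order of all detected genes Pdgfrb ranked 116 of 16504 from the lowest, or within the lowest 0.703%. The empty vector reading was taken from the lower-gain pass of the scanner and scaled up, as were 976 spots on that array and 1066 on the other, whereas the reading on the array labelled MARVELD1 was not. Spots scaled up on the empty vector array only (96) had a median log2 difference of -0.51. Those scaled up on the array labelled MARVELD1 only (186) had 0.62, and those on both (880) had 0.30. Scaling goes with brightness on an array, so these medians do not give the part of scaling in the Pdgfrb difference, which was not tested.

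Pdgfra, the alpha receptor gene, gave a smaller difference that was measured more precisely, because its probe A_51_P345649 was printed 10 times on each array. On the array labelled MARVELD1 the 8 spots used ranged from 1583.5 to 1806.6 with a median of 1669.6. On the empty vector array the 10 spots ranged from 2394.9 to 3081.4 with a median of 2645.0. No spot of one array reached the range of the other, even with the 2 outlier spots of the array labelled MARVELD1, which read 1748.1 and 1685.2. The log2 difference was -0.54 with a standard error of 0.039 over spots, or 1.46-fold lower. The SD over spots was 0.067 on the array labelled MARVELD1 and 0.099 on the empty vector array. These errors describe repeated spots of 1 RNA sample on each side.

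**Figure D2:**
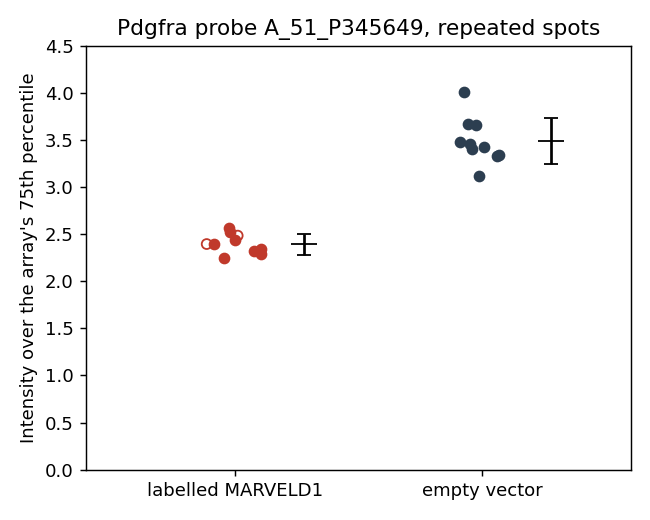
Intensity of each spot of Pdgfra probe A_51_P345649 divided by the 75th percentile of its array, with the mean and SD of the used spots beside the points. Open circles are the 2 spots that the scanner software called outliers. The array labelled MARVELD1 spans 2.25 to 2.57 and the empty vector array 3.12 to 4.01, with no overlap.

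The second Pdgfra probe did not show this difference. A_52_P264283, which lies 34275 bases upstream of the first in the genome and is annotated to the same transcripts, read 59.6 on the array labelled MARVELD1 and 63.7 on the empty vector array. Its log2 difference was 0.03, with a combined software error of 0.34, and it turned slightly negative under other scalings, down to -0.14. Both readings lie near 38.1 and 36.6, the lowest intensities called well above background on these arrays in the same order. For 5490 genes with several probes measured on both arrays, the log2 differences of the probes spread about their gene's mean with an SD of 0.54.

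By each gene's brightest probe, the log2 difference of Pdgfrb minus that of Pdgfra was -1.56. It lay between -1.85 and -1.54 under the 10 alternatives tried, but not all of these could change it. Scaling by the median cancels in this value. Other filters on dim probes and the most 3-prime probe kept the same probes, so these alternatives gave -1.56 again. Levels of these receptors were not compared, since different probes bind their targets with different strength.

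Pdgfrl, the receptor-like gene, had the largest difference of the family. Probe A_51_P466229 read 525.0 on the array labelled MARVELD1 and 4360.3 on the empty vector array. The log2 difference was -2.93, or 7.60-fold lower, with a combined software error of 0.21. Unsubtracted signals were 645.7 and 4563.2 on these arrays, over local backgrounds of 41 and 40. Neither reading came from the lower-gain pass. In the ranking of all detected genes it was 52 of 16504 from the lowest, within the lowest 0.315%. The other probe, A_52_P537350, was designed on a cDNA clone from embryo head and lies 50737 bases upstream. It read 9.69 and 10.5, surrogate values that the software writes for unmeasurable spots, so it adds no reading for or against the first. Its GC content is 26.7%, against 51.7% for the probe that gave a signal.

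**Figure D3:**
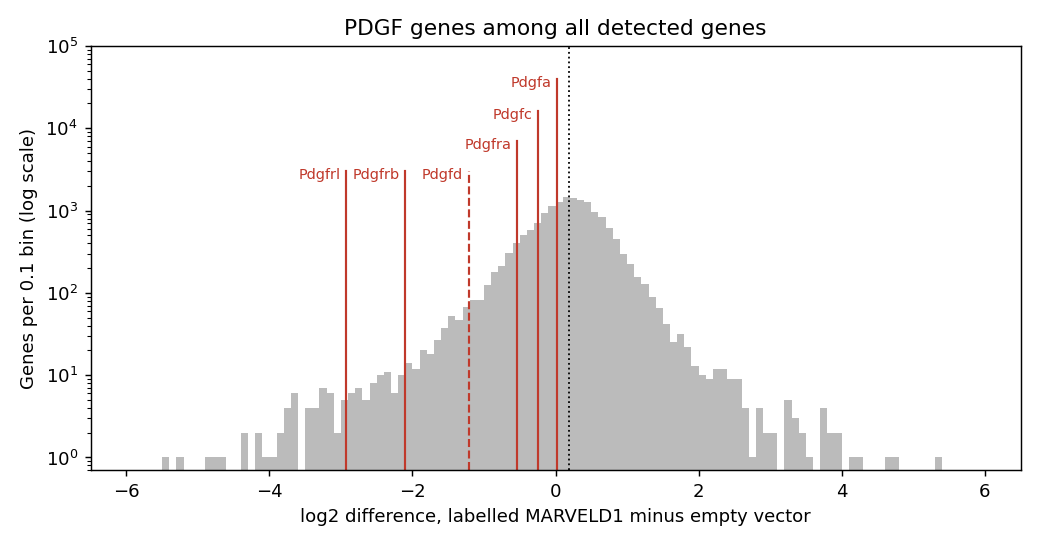
Distribution of the log2 differences of 16504 detected genes (grey bars, counts per 0.1 bin, log axis) with the 6 detected PDGF genes as red lines, dashed for Pdgfd, which is a bound. The dotted line is the median of all genes, 0.19. Pdgfrl at -2.93 and Pdgfrb at -2.10 lie in the lower tail and Pdgfa at 0.02 near the middle.

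The ligand genes divided into Pdgfa and Pdgfc, which were bright, and Pdgfb and Pdgfd, which were at or near background. Pdgfa encodes the A chain, a ligand of the alpha receptor. Its brighter probe A_51_P370090 read 9844.8 on the array labelled MARVELD1 and 10611.2 on the empty vector array, a log2 difference of 0.02. Probe A_51_P370099, 2103 bases away, read 2381.9 and 2663.7 on these arrays, a log2 difference of -0.03. Both values lie within the software error of 0.20. Under the other scalings they ranged from -0.26 to 0.03 and from -0.20 to -0.02, so the sign of the first is not settled.

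Pdgfc encodes the C chain, which also acts through the alpha receptor. Its probe A_52_P376360 read 3024.9 on the array labelled MARVELD1 and 3900.5 on the empty vector array, a log2 difference of -0.24. Probe A_51_P333839 lies 153 bases from it and read 1092.3 and 1739.5 on these arrays, a log2 difference of -0.54, or 1.46-fold lower. The probes share a direction but differ in size. A further probe, A_52_P408629, was too close to background to measure on both arrays, at 14.9 with the MARVELD1 label and 9.59 with the empty vector.

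Pdgfd encodes the D chain, which binds the beta receptor. Probe A_52_P636948 read 28.6 on the array labelled MARVELD1, not well above background, and 96.2 on the empty vector array. The gene was at least 2.32-fold lower, a bound of -1.21 on the log2 scale that weighs the empty vector reading against the lowest well-measured intensity of the other array. With normexp background correction it was -0.71 and no longer past 2-fold. The other Pdgfd probe, A_52_P264790, read 8.01 and 8.22 on these arrays, both surrogate values. Spots under 100 varied most, with an SD of 0.66 for a difference between single spots over 34 repeated probes.

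Pdgfb, the B chain gene and the ligand of both receptors, was not detected. Probe A_51_P175262 read 40.3 on the array labelled MARVELD1 and 17.5 on the empty vector array. Probe A_52_P618427 read 9.502 and 8.59 on these arrays. None of the 4 readings was well above background, so no fold is given. Probe A_52_P618427 has a GC content of 18.3% and an unbroken run of 16 A and T bases, and its first 30 bases show it.
Pdgfb A_52_P618427, chr15:79826327-79826386, - strand: ggctttcTTTTTATTTTTTAAATgtaaagt

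The authors' deposited table of normalized intensity held 8 of the 14 probes, those measured on both arrays. In the authors' deposited table Pdgfrl was 4.26 on the array labelled MARVELD1 and 34.99 on the empty vector array. The authors' deposited table gave Pdgfrb 32.2 and 149.8 on these arrays, and Pdgfra 13.6 and 21.8 by its repeated probe. These values are nearly all the same scanner intensities divided by 1 constant per array, 123.3 with the MARVELD1 label and 124.6 with the empty vector. Their directions therefore repeat those of the scanner files and are no second measurement.

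**Figure D4:**
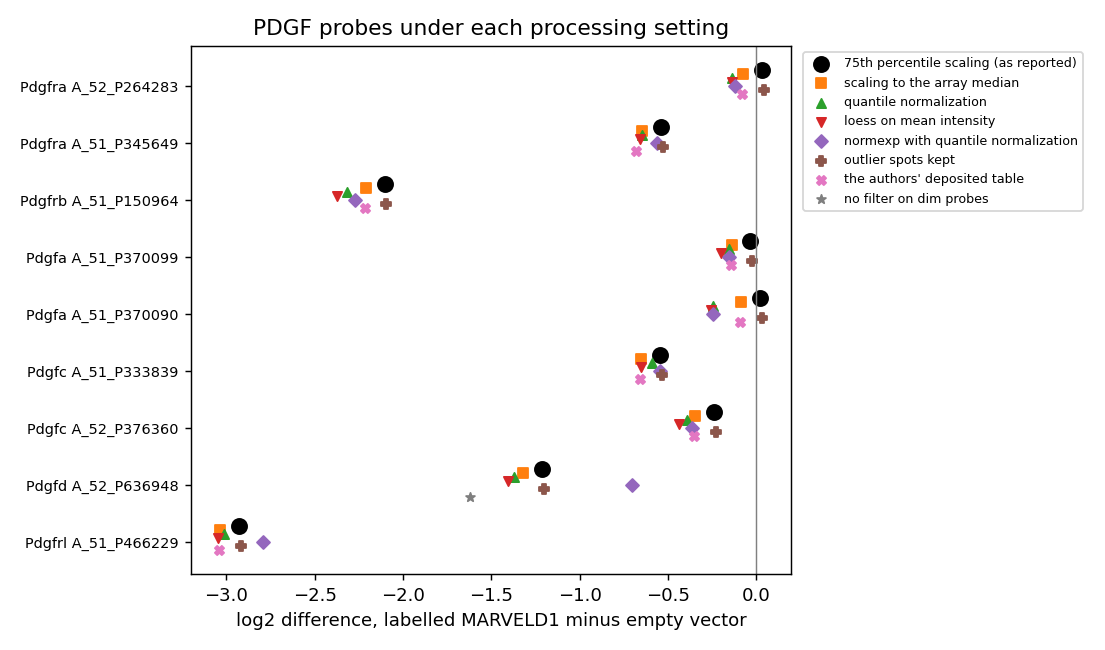
Log2 differences of the 9 detected PDGF probes under each processing setting, with the reported value as the large black point. Pdgfrl stays between -3.04 and -2.79 and Pdgfrb between -2.37 and -2.09, while Pdgfd lies between -1.62, its plain difference without the filter on dim probes, and a bound of -0.71 with normexp.

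Related receptor kinases and their ligands held 14 detected genes, of which 1 was higher past 2-fold and 2 were lower by brightest probe. These are 7.14% higher and 14.3% lower, beside 5.41% and 3.51% of all genes. The median was 0.29 against 0.19 for all genes. Kit, the stem cell factor receptor gene next to Pdgfra, read 52.0 on the array labelled MARVELD1 and 45.9 on the empty vector array, close to background. Csf1r, which encodes the colony-stimulating factor receptor and neighbours Pdgfrb, read 502.1 and 670.5 on these arrays, a log2 difference of -0.29. Its other probes gave 1.33 and -0.17, so the gene has no settled direction. Flt1, a VEGF receptor gene, was 2.64-fold lower by its brighter probe and 0.21 on the log2 scale by the other. Flt3, Kdr and Flt4 differed by 0.44, 0.18 and 0.78, at readings of 177.7, 175.0 and 100.9 on the array labelled MARVELD1 and 143.3, 169.9 and 64.1 on the empty vector array. The stem cell factor gene Kitl was 2.02-fold lower, with a log2 difference of -0.10 from its other probe. Flt3l, the ligand gene of the FLT3 receptor, was 2.05-fold higher.

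The genes beside Pdgfrl were lower too, although by less. Slc7a2, a cationic amino acid transporter gene on one side, read 51.1 on the array labelled MARVELD1 and 125.0 on the empty vector array, a log2 difference of -1.16. Mtus1, a microtubule-associated gene on the other side, read 161.7 and 270.9 on these arrays, a log2 difference of -0.62. Next to Pdgfa, Fam20c, a secretory pathway kinase gene, gave -0.89 and Prkar1b gave -0.23. Beside Pdgfc the glycine receptor gene Glrb was lower by a bound of -0.83, from readings of 14.8 and 73.9 on these arrays, and the cathepsin gene Ctso gave -0.08. Casp12, beside Pdgfd, gave -1.10. The further neighbours were Gsx2 beside Pdgfra at 0.85 and Rpl3 beside Pdgfb at 0.13, while Cdx1, Cbx7 and Ddi1 were not detected.

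Proteins that cleave, activate or bind PDGFs showed, by brightest probe, 1 of 13 detected genes higher past 2-fold and 0 lower, with a median of 0.42. That is 7.69% higher, near the 5.41% of all genes. Other probes of Nrp1 gave 3.44 and 0.33 on the log2 scale, and those of Cspg4 -1.75 and 0.44. Plau, whose urokinase product can activate the D chain, was 2.06-fold higher, with 0.82 from its other probe. Its readings were low, at 135.5 on the array labelled MARVELD1 and 71.7 on the empty vector array. Plat, encoding the tissue plasminogen activator that cleaves the C chain, read 5210.7 and 8952.5 on these arrays, a log2 difference of -0.65, with -1.20 from its other probe. Thbs1, for thrombospondin, gave -0.65. Plg was at least 1.76-fold higher from readings of 58.9 on the array labelled MARVELD1 and 34.3, not well above background, on the empty vector array. Furin, the convertase that processes A and B chains, gave 0.43 at readings of 21505.8 and 17401.0. Sparc, a matrix protein that binds PDGF, gave -0.32, with -1.20 from its other probe.

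Downstream of the receptors, among 31 docking and adaptor genes 0 were higher past 2-fold and 1 was lower by brightest probe, with a median of 0.05. That is 3.23% lower, near the 3.51% of all genes. That 1 was Pik3r1, the regulatory subunit of PI 3-kinase that docks on the receptors, 2.71-fold lower at 93.2 on the array labelled MARVELD1 and 275.6 on the empty vector array. Its other probes gave -1.09, -0.17 and -1.33. Grb10 gave 0.07 by its brightest probe but -1.94 by the other. Rasa1, the Ras GTPase-activating protein that binds the beta receptor, was 1.99-fold lower, at 609.2 and 1325.9 on these arrays. At the upper end Pik3cb, a catalytic subunit, was 1.97-fold and Plcg2 1.84-fold higher. Of 19 Ras, MAP kinase and AKT relay genes 0 passed 2-fold in either direction by brightest probe, and the median was 0.27. Akt1 gave 0.53 by that probe but -1.76 by the other. Mapk3, which encodes ERK1, gave -0.56 with -0.64 from its other probe. Srf and Braf were the highest, at 0.84 and 0.63, with 0.41, 0.28 and 1.33 among the other probes of Braf.

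Negative regulators held members at both ends, 3 higher and 3 lower past 2-fold among 24, with a median of 0.05. These are 12.5% in each direction, beside 5.41% higher and 3.51% lower of all genes. Lrig1, whose product promotes breakdown of growth factor receptors, was 2.30-fold higher, at 13494.3 on the array labelled MARVELD1 and 6412.8 on the empty vector array. The cytokine signalling suppressor gene Socs3 was 2.17-fold and the tyrosine phosphatase gene Ptpn2 2.04-fold higher. Gas1, a growth arrest gene, was 7.49-fold lower and the MAP kinase phosphatase gene Dusp1 2.44-fold lower. Acp1, a small tyrosine phosphatase gene, was 2.31-fold lower by its brightest probe but 0.63 on the log2 scale by the other.

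Of 28 detected early genes known to be induced by PDGF in fibroblasts, 2 were higher and 2 lower past 2-fold. These are 7.14% in each direction, not far from the 5.41% higher and 3.51% lower of all genes, and the median was 0.47 against 0.19 for all genes. Hbegf, an EGF receptor ligand gene, was 3.71-fold higher and the urokinase receptor gene Plaur 2.79-fold, with 0.69 from its other probe. Ccl7, a monocyte chemokine gene, was 2.97-fold lower with -1.54 from its other probe. Fos was 2.51-fold lower at dim readings of 59.0 on the array labelled MARVELD1 and 161.2 on the empty vector array. Factors linked to receptor gene transcription had a median of 0.08. Past 2-fold 0 of 18 were higher and 2 lower, or 11.1% lower beside 3.51% of all genes. These were Id2, 13.1-fold lower with -1.92 from its other probe, and Id3, 2.21-fold lower. The Id2 fold rests on a dim reading of 52.0 on the array labelled MARVELD1, against 741.3 on the empty vector array. Foxc2 and Trp73 were the highest at 0.59 and 0.55, but a second Trp73 probe gave 2.51.

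**Figure D5:**
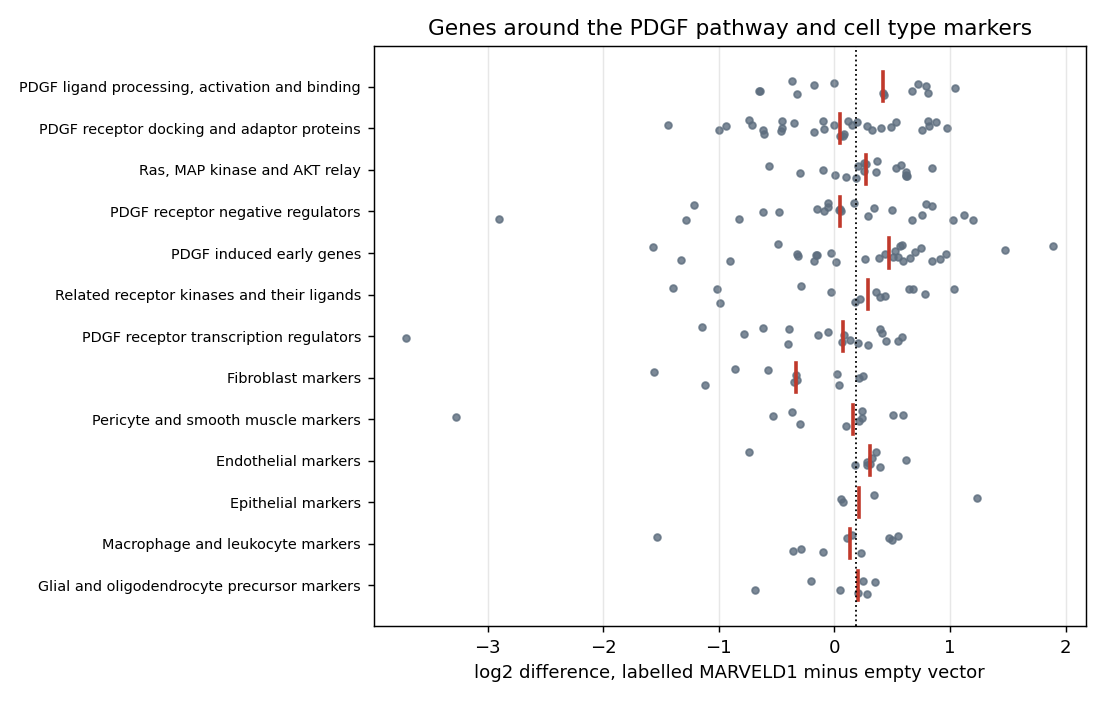
Log2 difference of each detected gene (points) in lists around the PDGF pathway and in cell type marker lists, with the list median as a red bar and the median of all genes, 0.19, as a dotted line. Most medians lie near the dotted line, and the fibroblast markers lie lowest at -0.33.

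Cell type markers were read beside the receptors, because PDGF receptor genes also mark mesenchymal cells. In bulk RNA, fewer cells of a type and less RNA per cell cannot be told apart. Fibroblast markers had a median of -0.33, with 0 of 11 higher and 2 lower past 2-fold by brightest probe. That is 18.2% lower, beside 3.51% of all genes. Their summed intensity over the 75th percentile was 838.1 on the array labelled MARVELD1 and 960.6 on the empty vector array. The lower ones were Col3a1 at 2.94-fold, with -0.10 from another probe, and Fn1 at 2.18-fold, with -2.47 and -0.00 from others. Without S100a4, the brightest of them, the sums were 505.5 and 681.3 on these arrays. Pericyte and smooth muscle markers summed to 161.4 on the array labelled MARVELD1 and 127.5 on the empty vector array, nearly all of it from the smooth muscle actin gene Acta2, at 153.4 and 108.2. The other 9 summed to 7.98 and 19.3, the opposite direction. Among these 9 Tagln was the brightest on the empty vector array, at an intensity of 8245.7 against 778.4 with the MARVELD1 label. The list median was 0.16 against 0.19 for all genes, and only 4 of the 10 were lower at all. Acta2 gave a log2 difference of 0.50, but -1.30, 1.14 and 1.43 from its other probes, so its direction is not settled. In this list 1 of 10 passed 2-fold, Tagln at 9.70-fold lower, with -3.73 from its other probe. That is 10% lower, beside 3.51% of all genes. Desmin (Des) and Kcnj8, which mark such cells, were not detected.

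Markers of other cell types ranged from undetected to bright. Endothelial markers summed to 2.57 on the array labelled MARVELD1 and 2.87 on the empty vector array over 9 detected genes, with 0 past 2-fold. Cdh5, the endothelial cadherin gene, was the brightest at 708.5 and 1288.6 on these arrays, a log2 difference of -0.74 with -1.74 from its other probe. The other 8 summed to 1.56 and 1.196, the opposite direction. Among them Pecam1 read 43.4 and, not well above background, 32.1. Epithelial markers summed to 0.69 on the array labelled MARVELD1 and 0.54 on the empty vector array, and Epcam, Cdh1, Krt19, Cldn4 and Esrp1 were not detected. The only 1 of 4 past 2-fold was Krt18, at least 2.35-fold higher. With so few genes that is 25% higher, beside 5.41% of all genes. Macrophage and leukocyte markers summed to 6.91 and 8.69 on these arrays over 10 genes. Most of this was Cd14, a lipopolysaccharide co-receptor gene, at 2999.1 on the array labelled MARVELD1 and 4194.7 on the empty vector array, while the other 9 summed to 2.64 and 3.23. Ptprc, the pan-leukocyte antigen gene, read 55.1 and 44.2. Cx3cr1 alone passed 2-fold there, 2.90-fold lower with 0.31 from its other probe. That is 10% lower, beside 3.51% of all genes. Glial and oligodendrocyte precursor markers, some of which sit in cells that carry the alpha receptor, summed to 5.27 and 7.60 over 7 genes with 0 past 2-fold. Most of that came from Sox10, at 2774.3 on the array labelled MARVELD1 and 4875.2 on the empty vector array, and the other 6 summed to 1.32 and 1.25. Sox10 and Cd14 thus lay above the 75th percentile of both arrays. The part of cell composition in the receptor differences was not tested.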

How the data were processed

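Per the file headers, the authors' scanner files hold the fluorescence intensity of each spot from Agilent Feature Extraction 9.5.3.1, background-subtracted and detrended, with both arrays on 1 slide. A table of normalized intensity was deposited too by the authors, and its columns lie within 1% of the processed intensity divided by 123.3 for 99.7% of probes on the array labelled MARVELD1 and by 124.6 for 99.6% on the empty vector array. Outlier spots (223 and 116 on these arrays) were left out. Processed intensity was divided by the array's 75th percentile, and its log2 averaged over a probe's spots, in Python 3.11.15 with R 4.3.3 and limma 3.58.1 for alternative normalizations. Probes were named by accession, symbol or unique older name through the RefSeq table of GRCm38.p6, which also gave neighbours. A gene was represented by its brightest probe detected on at least 1 array. Where 1 array was not well above background, the bound takes as the dim value the higher of the probe's own value and the lowest among probes with every spot well above background. With 1 array per group there is no test, and 2-fold is a limit of size. The steps were tested on simulated data. The members and lists were chosen with earlier results of these data known. Named were every member and Marveld1, chromosomal neighbours, related receptor kinases and, from each list, genes past 2-fold and the 2 highest and 2 lowest, of which those described are a selection. A gene that this rule selects is not reported here. Furin, Sparc, Ptprc, Pecam1, Akt1, Nrp1, Cspg4, Grb10, Thy1, Col1a1 and Ddr2 were added after their values were seen. Alternatives were other scalings, normexp, other filters on dim probes, other probes of a gene, kept outlier spots, the authors' values and limits of 1.5-fold and 3-fold.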

Additional observations from a re-analysis of the deposited data

How the results depend on the processing

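All 9 detected PDGF probes except that of Pdgfd moved by less than 0.39 under the alternatives that could be computed for them. This is the SD of a difference between single repeated spots, dim and bright together, and it was 0.17 for bright probes. With loess some bright probes moved by more than 0.17: Pdgfrb to -2.37, Pdgfa A_51_P370090 to -0.26 and Pdgfc A_52_P376360 to -0.44. Pdgfa A_51_P370099, at -0.20 with loess, moved by about that SD. The Pdgfd bound was -0.71 with normexp and its plain difference -1.62 without the filter on dim probes. Of the PDGF genes 3 were lower past 2-fold in most settings. There were 2 with normexp, with both arrays required, in the authors' deposited table and at 3-fold, where Pdgfd dropped out and Pdgfrl and Pdgfrb stayed. Without the filter 1 was higher, Pdgfb, from readings not well above background. Over all genes 893 were higher and 579 lower past 2-fold, and the majority depends on scaling: 655 and 713 when scaled by the median, 667 and 704 by quantiles, 608 and 755 by loess, 312 and 427 with normexp, and 479 and 615 in the authors' deposited table. At 1.5-fold 3213 were higher and 1462 lower, and at 3-fold 199 and 211. The median of all genes lay between 0.04 and 0.20. Relative to it, the list median lay between 0.11 and 0.29 for early genes and between 0.03 and 0.24 for ligand processing. It lay between -0.05 and 0.16 for relay genes and between -0.81 and -0.51 for fibroblast markers. An SD of single spots does not measure the spread of a list median. Relative list medians moved by less than 0.39 except for the 4 epithelial markers, at 0.59 with the most 3-prime probe, where the probe itself changes. That probe was found from the order of coordinates in the files, because the RefSeq table gives no strand. No paired analysis was possible because each group has 1 array. Dim signal limits what can be said of Pdgfb, Pdgfd and the second probes of Pdgfra, Pdgfrl and Pdgfc.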
